A study of Homo sapiens and Mus musculus with 10 samples.

Results

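The chromatin of a lymphoid and a myeloid-erythroid cell line was compared in 4 of the 10 bulk ATAC-seq libraries of the series, 2 of GM12878 and 2 of K562. In ATAC-seq the Tn5 transposase cuts and tags DNA that nucleosomes leave exposed, so that peaks of tagged fragments show open chromatin. GM12878 is an Epstein-Barr virus-transformed B-lymphoblastoid line. K562 is a chronic myeloid leukaemia line with erythroid and megakaryocytic features. Per the labels, both lines were grown in RPMI-1640 with fetal bovine serum, at a higher serum share for GM12878, and neither was treated. Nuclei were isolated with an Omni-ATAC buffer, tagmented and sorted before amplification. Each lineage is represented by a single line, so a difference between lymphoid and myeloid cells cannot be told apart from a difference between these cultures, their serum or their genomes.

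Peaks of the 4 libraries that shared at least 1 bp were merged into 153407 regions on the autosomes and X. A region was assigned to GM12878 only or K562 only when both libraries of that line had a peak in it and neither library of the other line did. This gave 72777 one-line regions: 48974 of GM12878 only (31.9% of all merged regions) and 23803 of K562 only (15.5%). Another 34582 (22.5%) had a peak in all 4 libraries, and the remaining 46048 were unsettled because a line had a peak in 1 of its 2 libraries. Promoter regions overlapped the 1 kb on either side of a protein-coding start site of GENCODE release 44, and the others are called distal.

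Lineage choice in blood cells is written largely in distal enhancers, where lineage-restricted transcription factors bind short DNA motifs and keep nucleosomes away. In B cells these factors include EBF1, PAX5, PU.1 (SPI1), the interferon regulatory factors IRF4 and IRF8, RUNX3 and OCT2, and Epstein-Barr virus transformation adds constant NF-kappaB signalling. In erythroid and megakaryocytic cells GATA1 or GATA2 binds together with TAL1, an E-box factor, and its partner LMO2, and switches on globin, haem and red-cell membrane genes.

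The windows below show what these motifs look like in one-line regions. For each line 2 are shown, taken from the 3 distal one-line regions of highest fold that lay within 100 kb of a start site of a listed lineage gene and held one of that line's motifs. Here fold is the authors' value of a summit over the local background of its own library, ranked by the lower of the 2 libraries. Each sequence covers 50 bp on either side of the summit in hg38, on the plus strand, with the motif that chose it in capitals.
BANK1 intron, GM12878 only, EBF motif, chr4:101807052-101807152: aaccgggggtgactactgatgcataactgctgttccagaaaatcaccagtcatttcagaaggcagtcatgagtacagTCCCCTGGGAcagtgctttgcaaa
Intergenic near FCRL1, GM12878 only, OCT motif, chr1:157726983-157727083: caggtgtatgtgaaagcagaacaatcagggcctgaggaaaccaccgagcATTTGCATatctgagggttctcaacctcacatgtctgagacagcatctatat
ALAS2 intron, K562 only, GATA motif, chrX:55028172-55028272: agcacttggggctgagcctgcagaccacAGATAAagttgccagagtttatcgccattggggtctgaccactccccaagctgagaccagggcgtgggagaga
RGS3 intron near ALAD, K562 only, GATA motif, chr9:113455424-113455524: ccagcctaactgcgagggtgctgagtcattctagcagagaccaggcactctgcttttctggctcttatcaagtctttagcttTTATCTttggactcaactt

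The BANK1 window lies 6724 bp from a BANK1 start site, and its peak had folds of 17.5 and 19.2 in the 2 GM12878 libraries. BANK1 encodes a B-cell scaffold protein. The FCRL1 window had folds of 17.02 and 16.98 and lies 26264 bp from FCRL3, its nearest start site. Neither region had a peak in either K562 library. On the K562 side, the ALAS2 window, 2754 bp from the start site of this erythroid haem synthesis gene on chromosome X, had folds of 12.9 and 10.9. It also held an E-box half-site next to its GATA motif, the composite that TAL1 and GATA1 are known to bind. The RGS3 window had folds of 10.7 and 10.3 and also held an NFE2 motif, which contains the AP-1 motif. It lies 54184 bp from ALAD, another haem synthesis gene.

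GM12878 had more peaks and more open sequence than K562, and the excess was mostly distal. The GM12878 libraries held 101704 and 103715 peaks and the K562 libraries 78601 and 71241. The means were 102710 ± 1422 and 74921 ± 5204 (SD, n = 2 each), a ratio of 1.37. Distal peaks numbered 79723 and 81476 in GM12878 and 58337 and 51612 in K562, a ratio of the means of 1.47. Promoter peaks numbered 21981 and 22239 against 20264 and 19629, a ratio of 1.11. Peaks covered 40.8 ± 0.408 Mb in GM12878 and 28.8 ± 1.87 Mb in K562 (SD, n = 2 each). No value of one line overlapped a value of the other for any of these measures. An exact two-sided permutation test of 2 libraries against 2 gives p = 0.333 for each, the smallest it can give.

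The files give no read totals. A background level was recovered from the folds and p-values, as the median over the peaks of lowest local background in each library. It was 1.71 and 1.73 reads in GM12878 and 2.21 and 1.97 in K562. The median pileup at a peak summit, over all peaks, was 35 reads in both GM12878 libraries and 30 in both K562 libraries. Within each line the library with the higher background level had more peaks. The part of depth and of signal over background in the peak number was not tested. Of the peaks of replicate 1, 89.3% in GM12878 and 79.5% in K562 were found again in replicate 2, and without K562 replicate 2 the number of K562-only regions was 35829 in place of 23803. With each list shortened to its 60000 strongest peaks, 24152 regions were open in GM12878 only and 21837 in K562 only.

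**Figure D1:**
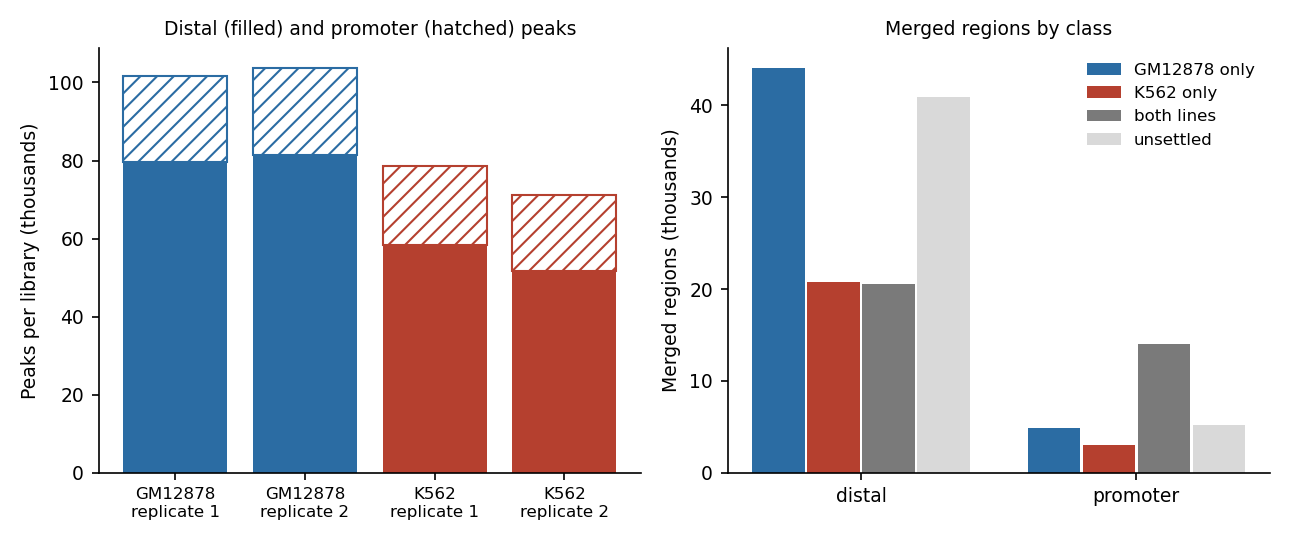
Left, peaks per library, distal filled and promoter hatched; right, merged regions by class and position, both axes in units of 1000. The 2 GM12878 libraries stand above the 2 K562 libraries mainly in distal peaks, and one-line regions are mostly distal whereas promoter regions are mostly shared.

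Promoters were largely shared and distal regions were not. Of 27101 promoter regions, 4899 (18.1%) were open in GM12878 only, 3053 (11.3%) in K562 only and 13977 (51.6%) in both lines. Of 126306 distal regions, 44075 (34.9%) were open in GM12878 only, 20750 (16.4%) in K562 only and 20605 (16.3%) in both. Promoters made up 10.0% of GM12878-only regions, 12.8% of K562-only regions and 40.4% of shared ones. One-line regions also lay farther out: 21.1% of GM12878-only and 16.6% of K562-only distal regions were more than 100 kb from any protein-coding start site, against 10.4% of shared distal regions. These shares describe regions, which are not replicates.

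One-line regions were weaker than shared ones within the same libraries. In GM12878 the median fold was 6.41 at its one-line regions and 9.34 at shared ones, and in K562 it was 5.45 and 7.43. The median width of distal regions was 348 bp in GM12878 only, 321 bp in K562 only and 445 bp in both lines, where shared regions are the union of peaks from 4 libraries and one-line regions from 2. The strongest peaks were not exempt at distal sites. Among the 1000 distal regions of highest fold, 35.0% were one-line in GM12878 and 30.3% in K562, while among the 1000 strongest promoter regions 8.00% and 3.40% were.

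At the level of genes, 1046 of 19970 protein-coding genes (5.24%) had a promoter open in GM12878 only and 792 (3.97%) in K562 only. Promoters of 13014 genes (65.2%) were open in both lines, 3964 (19.8%) in neither and 1154 (5.78%) were unsettled. This order depended on list length: with the 60000 strongest peaks per library, 798 genes were GM12878 only and 1277 K562 only, of which 651 and 640 were also in the counts above. One-line promoters had a lower CpG content, relative to that expected from their bases, than shared ones. The median ratio of observed to expected CpG was 0.414 in GM12878-only genes, 0.511 in K562-only genes, 0.799 in genes open in both lines and 0.263 in genes open in neither.

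Around one-line promoters of either line, distal regions of that line were more numerous than around all genes. A gene open in GM12878 only had on average 5.06 GM12878-only and 1.52 K562-only distal regions within 100 kb. A gene open in K562 only had 2.34 and 2.55, genes open in both lines had 4.06 and 2.30, and all genes had 3.73 and 2.09. Genes open in both lines are 65.2% of all genes, and most one-line distal regions lay near such a gene. Within 100 kb of its start lay 54.1% of those of GM12878 and 62.1% of those of K562. Within that distance of a one-line gene of their own line lay 10.3% and 8.59%. Those gene classes hold 5.24% and 3.97% of all genes. The same shares over all distal regions are not given here. GM12878-only distal regions outnumbered K562-only ones at 77.2% of GM12878-only genes and at 36.7% of K562-only genes, against 60.02% of all genes. K562-only ones were the more numerous at 44.8% of K562-only genes and at 13.1% of GM12878-only genes, against 24.8% of all genes.

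B-cell receptor and surface genes separated the lines at part of their promoters and in the distal regions around them. Of 26 listed genes, 9 had a promoter open in GM12878 only and 0 in K562 only, against 5.24% and 3.97% of all genes. Another 15 were open in both lines, as were 65.2% of all genes. MS4A1, which encodes CD20, had promoter folds of 10.3 and 10.1 in the 2 GM12878 libraries and no promoter peak in either K562 library. For CD79A, a signalling chain of the B-cell receptor, the GM12878 folds were 5.28 and 5.92. BLK, a Src-family kinase of B cells, had folds of 11.5 and 11.8, with 17 GM12878-only and 0 K562-only distal regions within 100 kb. None of these 3 promoters had a peak in K562.

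CD86, the costimulatory ligand of CD28, had folds of 11.2 and 11.2, and its 22 GM12878-only distal regions within 100 kb, with 0 of K562 only, equalled the highest number of any gene. The receptor-proximal adaptor BLNK had folds of 7.34 and 7.40, and 12 GM12878-only distal regions lay near it. The other GM12878-only members were CD79B, CD38, CD27 and TNFRSF13B, with folds from 3.13 to 8.98. Over the whole list, 220 gene-region pairs within 100 kb were GM12878 only and 40 K562 only. The former were the more numerous at 24 of 26 genes, against 60.02% of all genes. BANK1 shows what an unsettled call looks like: its promoter folds were 18.5 and 19.1 in GM12878, with a peak of fold 4.04 in K562 replicate 2 and none in replicate 1.

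B-cell transcription factors were marked less at promoters than by the distal regions near them. Of 22 genes, 5 (22.7%) were open in GM12878 only, 0 in K562 only and 16 in both lines, where 5.24%, 3.97% and 65.2% of all genes were. IRF4, which directs plasma cell and germinal centre programmes, had folds of 5.04 and 5.26 and 20 GM12878-only against 2 K562-only distal regions. IRF8 had folds of 6.83 and 6.71 and 20 against 1. RUNX3 had 7.42 and 7.17 with 16 against 2. Each of these 3 genes had far more GM12878-only neighbours than the average of 3.73 over all genes.

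PAX5, the B-cell identity factor, was open in both lines when all its start sites were used, with 12 GM12878-only and 1 K562-only distal regions around it. When only the 5′ end of the gene was used, PAX5 became GM12878 only, and the count became 7 of 22 for the factors and 11 of 26 for the surface genes. BLK and CIITA lost their one-line call under the same setting, and with promoter windows of 2000 bp BLK, CD79A, CD86 and CIITA lost it, which left 6 of 26 surface genes. In total 206 GM12878-only and 41 K562-only gene-region pairs were found near the 22 factors. The former were the more numerous at 19 of 22, against 60.02% of all genes.

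Antigen presentation and NF-kappaB genes were marked on the GM12878 side as well. Of 13 genes of the HLA class II group, 4 (30.8%) were GM12878 only and 0 K562 only, against 5.24% and 3.97% of all genes. Another 6 were open in both lines and 3 were unsettled, where 65.2% and 5.78% of all genes were. HLA-DQB1 had folds of 16.8 and 17.2, HLA-DQA1 14.1 and 12.1, and HLA-DRB1 12.8 and 13.6. CIITA, the transactivator that controls class II transcription, had folds of 7.95 and 8.10 with 17 GM12878-only and 1 K562-only distal regions. HLA genes are polymorphic and similar to each other, so the placement of their reads is uncertain, and part of any difference there may lie in mapping, which was not tested.

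Among 21 NF-kappaB factors and targets, 15 were open in both lines, a class of 65.2% of all genes. Another 4 (19.05%, against 5.24% of all genes) were GM12878 only and 0 K562 only. These were the chemokine genes CCL17 (folds 6.01 and 4.78) and CCL22 (7.59 and 6.82) and the cytokine genes LTA (3.30 and 3.23) and TNF (4.79 and 4.63). The list had 160 GM12878-only and 58 K562-only gene-region pairs. At 16 of 21 genes the former were the more numerous, against 60.02% of all genes. In this list and the others, neighbouring genes such as LTA and TNF have overlapping 100 kb windows. The same regions could thus be counted for several genes. Of 16 pan-leukocyte genes 14 were open in both lines, as were 65.2% of all genes. The exceptions were PTPRC, which encodes CD45, with folds of 8.36 and 9.89 in GM12878, and CD48, with 8.14 and 8.23.

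At promoters, erythroid genes gave the reverse pattern in K562, with fewer one-line calls, and the distal regions near them were mixed. Of 14 erythroid transcription factors, 2 (14.3%, against 3.97% of all genes) were open in K562 only, 0 in GM12878 only and 11 in both lines. GATA1, on chromosome X, had folds of 4.08 and 4.71 in K562, with 6 K562-only and 0 GM12878-only distal regions within 100 kb. TAL1 had folds of 5.75 and 5.86, with 5 against 2. GATA2 had a promoter peak in all 4 libraries, yet 12 K562-only and 1 GM12878-only distal regions lay near it. Over the whole list, 82 gene-region pairs within 100 kb were K562 only and 65 GM12878 only. K562-only regions were the more numerous at 8 of 14 genes, against 24.8% of all genes. GM12878-only regions were so at 6 of 14, against 60.02% of all genes. With the 60000 strongest peaks per library, GATA2, LMO2 and NFE2 joined GATA1 and TAL1 as K562 only.

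Of 11 globin and chaperone genes, 3 (27.3%, against 3.97% of all genes) were K562 only, all in the beta-globin cluster on chromosome 11. HBD had K562 folds of 7.40 and 5.92. HBE1 and HBG2, the embryonic and a fetal globin gene, were called by a single shared peak of folds 8.38 and 8.12 at an upstream start site that both annotations use. HBB, the adult gene, had no promoter peak in any of the 4 libraries, but 12 K562-only and 0 GM12878-only distal regions within 100 kb. HBG1 likewise had no promoter peak and 10 against 1. HBA1, HBA2 and AHSP, the chaperone of alpha-globin, were open in neither line. HBA1 and HBA2, and HBG1 and HBG2, are near-identical copies, where reads may not have been placed. Over the 11 globin and chaperone genes there were 58 K562-only and 17 GM12878-only gene-region pairs, with more K562-only regions at 10 of 11 genes, against 24.8% of all genes. These genes lie mainly in the alpha and beta clusters, whose 100 kb windows overlap, so the same regions were counted for several genes and the genes are not independent.

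Of 27 red-cell membrane, haem and iron genes, 4 (14.8%, against 3.97% of all genes) were K562 only and 0 GM12878 only. RHAG, the Rh-associated glycoprotein, had folds of 9.50 and 9.53. EPB42, a membrane skeleton protein, had 7.65 and 7.48. GYPE had 12.2 and 10.2 and GYPB 7.55 and 8.65, but these glycophorin genes are close copies of each other. ALAS2 and SLC4A1, which encodes the anion exchanger band 3, were open in neither line, although 4 K562-only and 0 GM12878-only distal regions lay near ALAS2. Around the whole list the distal counts were close, 98 K562-only and 86 GM12878-only pairs, in a genome-wide background where GM12878-only regions were the more numerous.

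Myeloid and megakaryocytic markers gave a mixed picture. Of 12 megakaryocyte genes only GP6, the platelet collagen receptor, was K562 only, with folds of 8.999 and 9.73, and 6 genes were open in neither line. That is 8.33% of the list, against 3.97% of all genes. Of 17 granulocyte and monocyte genes, 2 were K562 only, namely LYZ (folds 3.71 and 6.18) and CD33 (7.30 and 8.86), or 11.8% against 3.97% of all genes. Another 6 of the 17 were GM12878 only, among them CD14 (6.51 and 6.31) and CSF3R (5.83 and 6.82), or 35.3% against 5.24% of all genes. One-line promoters of this list were thus not confined to the line labelled here as myeloid-erythroid. The count depended on the setting: by the 5′ end of each gene it became 2 in GM12878 only (CD14 and ITGAM) and 2 in K562 only. From 250 bases before to 50 after their RefSeq starts, CD14, CSF3R, CSF1R and CSF2RA had no peak in either line. AZU1 had a peak there in GM12878 replicate 1 only, and CD33 had a peak there in both K562 libraries. Those GM12878 calls thus rest on peaks at other start sites or farther out in the 1 kb windows.

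Markers of other cell types were checked in the same way. Of 15 T and NK cell genes, 6 were open in GM12878 only, including CD28 (folds 16.6 and 12.8) and LCK (5.41 and 4.55), and 0 in K562 only. This share was above the 5.24% of all genes and also above the 34.6% of the B-cell receptor and surface list, so GM12878-only promoters were not limited to B-cell genes. With the 60000 strongest peaks CD28 and LCK remained GM12878 only and CD3D became K562 only, and by gene 5′ ends CD247 became K562 only. CD3E and CD2 were open in neither line. From 250 bases before to 50 after their RefSeq starts, LCK and GNLY had no peak in either line. CD28 and NKG7 had a peak there in both GM12878 libraries. Of 12 fibroblast and epithelial genes, CDH1 (15.3 and 14.5), which encodes E-cadherin, was the one one-line promoter, in GM12878. That call was lost by gene 5′ ends and with promoter windows of 500 or 2000 bp, and KRT18 became K562 only with the 60000 strongest peaks.

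**Figure D2:**
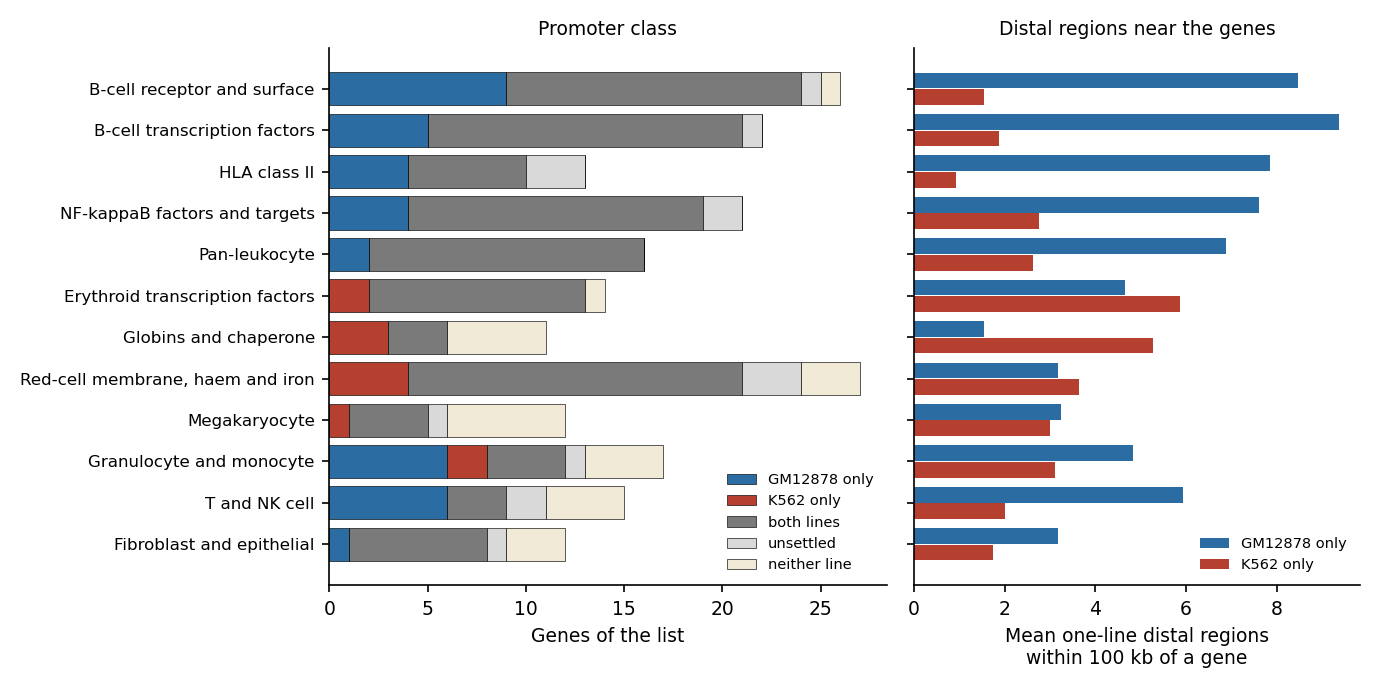
Left, the number of genes of each list by promoter class; right, the mean number of one-line distal regions within 100 kb of a gene of the list. The B-cell, HLA, NF-kappaB and T cell lists carry GM12878-only and no K562-only promoters, and the erythroid, globin and red-cell lists the reverse.

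The strongest one-line promoters were mostly not lineage genes. Ranked by the lower fold of the line's 2 libraries and leaving out promoters that share a window with another gene, the 12 leading GM12878-only genes were ZNG1A, ZNF773, CATSPERE, ADAM28, KHDRBS2, GSTM1, ZNF875, CFAP70, AFF3, FLRT3, SMIM6 and HLA-DQB1, with folds from 16.8 to 25.5. ADAM28, a metalloprotease of lymphocytes, had folds of 19.3 and 19.1. AFF3, a nuclear factor of lymphoid tissue, had 17.4 and 20.8. GSTM1 is often deleted in human genomes, and whether K562 carries it was not tested. In K562 the 12 were GTF2IRD2, SSX1, MEIOB, DNAH9, CT55, ONECUT2, TMEM47, TMEM144, CYP4F3, TCF15, TENM3 and LPCAT2, with folds from 13.6 to 19.9. SSX1 (16.8 and 17.5) and CT55 (15.6 and 15.6), both on chromosome X, are cancer-testis genes, and MEIOB (17.2 and 16.7) acts in meiosis. ZNG1A and GTF2IRD2 have near-identical copies elsewhere in the genome, so their peaks are uncertain.

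At the 10 strongest one-line distal regions of each line, the nearest start site belonged to a gene outside the lists. Distances to the listed lineage genes were not measured for these regions. The first in GM12878, at chr9:66153087-66153381, had folds of 25.1 and 26.0 and lay 416088 bp from FOXD4L4. Another, in an intron of MYO1D at chr17:32609040-32609646, had folds of 22.3 and 23.4. In K562 the first was chr14:19372764-19373470, with folds of 20.1 and 20.8, in the intergenic sequence 61224 bp from POTEG, a member of a duplicated gene family. Of the 10 leading regions of each line, 5 were intronic in GM12878 and 9 were intergenic in K562.

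One-line regions were unevenly spread over the genome. The median 1 Mb bin held 15 GM12878-only and 7 K562-only regions. The fullest GM12878 bin, chromosome 3 from 122 to 123 Mb, held 69 against 4 among 116 merged regions of any class. It contains CD86, CASR and CSTA, each with a GM12878-only promoter. Bins on chromosome 5 with NR3C1, chromosome 18 with MALT1, chromosome 16 with SOCS1 and chromosome 2 with SP140 held 61 to 67 GM12878-only regions. Their merged regions of any class numbered 108 to 137. The fullest K562 bin, on chromosome 6 with ZDHHC14, held 41 K562-only and 32 GM12878-only regions among 136. That on chromosome 1 with CD34, CD55 and CR1 held 38 and 20 among 116. Over the genome 31.9% of merged regions were GM12878 only and 15.5% K562 only. The part of overall region density in these bin counts was not tested. Genes name these bins by place only: after the first bin, SP140 was the only named gene with a one-line promoter. At 1118 genes (5.60%) 10 or more GM12878-only distal regions lay within 100 kb, and at 102 (0.511%) 10 or more K562-only ones did.

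Motifs separated the distal one-line regions by line. The search used fixed letters on both strands within 50 bp on either side of the summit, and the same windows moved by 2 kb to either side gave the background of sequence of the same length. The GATA motif, with the letters AGATAA, was found in 18.1% of the 20750 K562-only distal regions (95% exact binomial interval 17.6 to 18.6%), against 6.54% in their flanks. In the 44075 GM12878-only distal regions it was found in 4.40% (4.21 to 4.597%), below the 6.99% of their flanks. Shared distal regions had 4.51% at their K562 summits and 3.36% at their GM12878 summits. These intervals cover counting of regions only. Matches in repeated sequence were not set apart for any motif, and a repeat annotation was not used here.

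The composite of an E-box half-site and GATA (CTG, any 8 bases, then AGATAA, so that it contains the GATA motif) was in 2.56% of K562-only distal regions against 0.108% of flanks, and in 0.107% of GM12878-only regions. A spacing of 8 bases was the most frequent: 531 K562-only regions had 8 bases between the parts, 249 had 7 and 178 had 9, and each other spacing from 3 to 15 bases was found in 74 to 136. NFE2 (TGC followed directly by the AP-1 motif), bound by the erythroid factor NF-E2, was in 1.53% of K562-only and 0.302% of GM12878-only regions. STAT (TTCCNGGAA) was in 0.940% and 0.159%, and KLF (CCACACCC) in 2.405% and 0.824%. AP-1 (TGAGTCA) was frequent in both, at 13.1% and 9.51%.

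**Figure D3:**
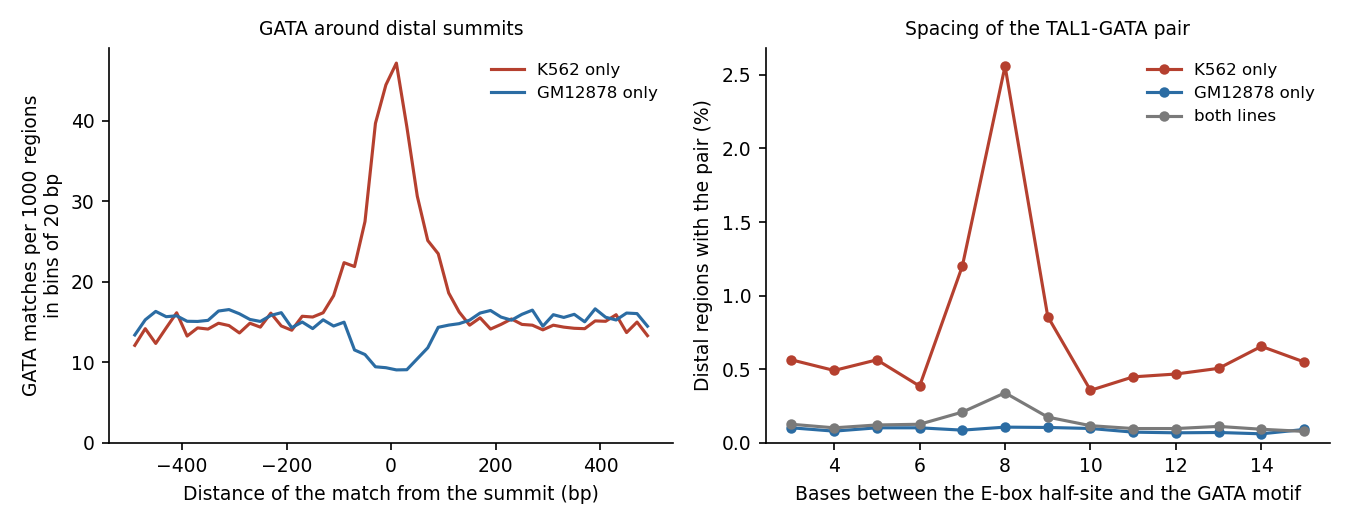
Left, GATA matches per 1000 distal regions in bins of 20 bp against distance from the summit in bp; right, the share of distal regions with an E-box half-site and GATA pair against the number of bases between them. K562-only regions peak at the summit where GM12878-only regions dip, and the pair peaks at 8 bases in K562-only regions.

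Motifs of B-cell factors and of NF-kappaB were more frequent in GM12878-only than in K562-only distal regions, though not all are particular to lymphoid cells. RUNX (TGTGGTT) was in 7.13% of GM12878-only and 2.70% of K562-only regions. IRF (a pair of GAAA with any 2 bases between) was in 6.33% and 0.598%, the PU.1-IRF composite (GGAA, any 2 bases, GAAA) in 4.99% and 0.463%, and PU.1 (GAGGAAGT) in 3.98% and 1.03%. In K562-only regions RUNX and PU.1 were also above their flanks, which had 1.86% and 0.463%. IRF and PU.1-IRF were there below their flanks, which had 1.55% and 1.03%. OCT (ATGCAAAT) was in 2.63% and 0.925% and EBF (TCCC, any 2 bases, GGGA) in 0.681% and 0.178%. NF-kappaB (GGGA, any base, TTTCC) was in 1.21% of GM12878-only regions against 0.0998% of their flanks, and in 0.0916% of K562-only regions against 0.101% of theirs. At least 1 of these 7 motifs was in 24.1% of GM12878-only and 5.89% of K562-only distal regions. A flank share of the 7 together is not given. E2A and MEF2, motifs of the listed B-cell factors TCF3 and MEF2C, were not among the 7. In GM12878-only regions they were close to their flanks, E2A at 9.35% against 8.92% and MEF2 at 1.88% against 1.58%. E2A was in 6.81% of K562-only regions and in 14.0% of shared ones at their GM12878 summits. CTCF (CCA, any 2 bases, AG, any base, GGGC), the insulator factor, went with sharing instead: 11.8% of shared distal regions held it, against 1.32% of GM12878-only and 1.07% of K562-only ones.

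The shares of the leading motifs differed with peak strength. K562-only distal regions were split by fold into 4 equal groups, and GATA was in 15.4% of the lowest group and 22.2% of the highest. Split likewise, GM12878-only regions held at least 1 of the 7 motifs in 19.1% and 29.4%. Other motifs did not follow: E2A (CAGGTG) was in 10.7% and 8.10% of these GM12878-only groups, and NFY (AGCCAAT) in 2.198% and 2.005% of the K562-only ones. When all distal peaks of each library were searched, so that no one-line rule was applied, GATA was in 4.14 ± 0.0591% of GM12878 and 10.7 ± 0.0649% of K562 peaks (SD, n = 2 libraries each). For all 19 motifs the 2 lines did not overlap, with 10 higher in GM12878 and 9 in K562, and the exact two-sided permutation p was 0.333 for each, the smallest possible.

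**Figure D4:**
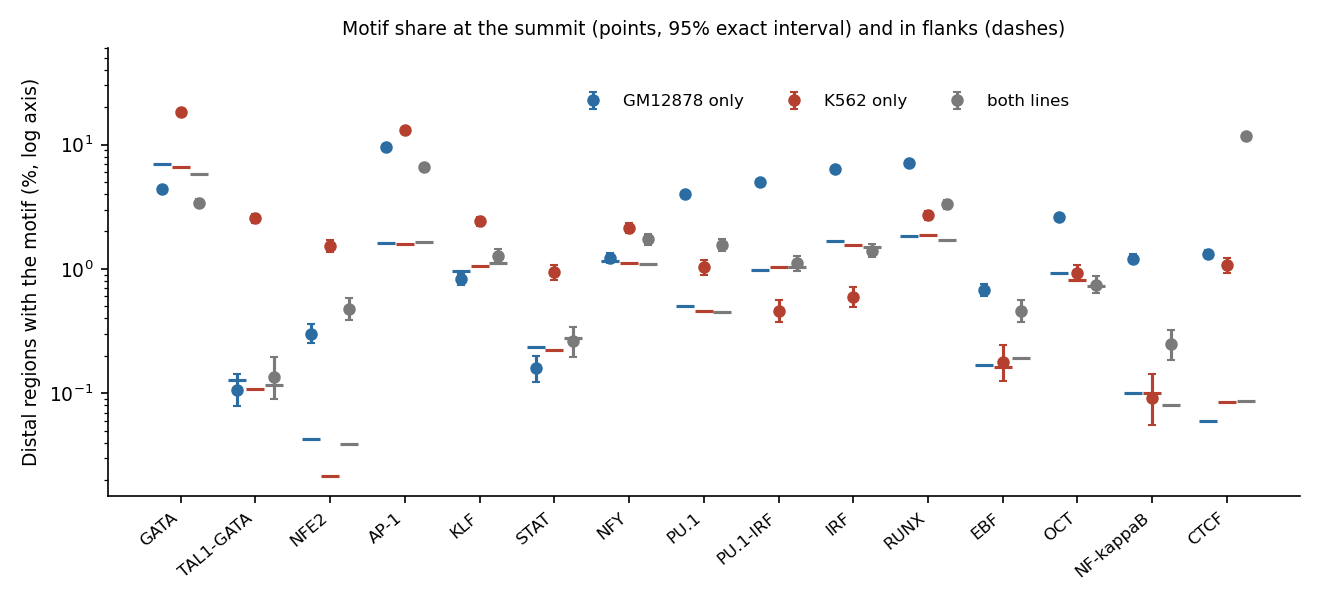
The share of distal regions holding each motif, in percent on a log axis, as points with 95% exact binomial intervals for one-line and shared regions, with dashes for the flanks 2 kb away. Shared regions are drawn at their GM12878 summits. GATA motifs stand above their flanks in K562-only regions, IRF, PU.1-IRF and NF-kappaB motifs in GM12878-only regions, and CTCF most of all in shared regions.

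The same motifs were present at some one-line promoters. GATA was at the summit of 10.3% of K562-only and 2.53% of GM12878-only promoter regions. The 250 bases upstream of 4 start sites, chosen after the values were seen, show examples from RefSeq (GRCh38.p14), each 5′ to 3′ along the gene with the line's motif in capitals. In each, the window from 250 bases before to 50 after the start had 1 peak in both libraries of the line and 0 in the other.
GP6 upstream, chr19:55038265-55038514, minus strand: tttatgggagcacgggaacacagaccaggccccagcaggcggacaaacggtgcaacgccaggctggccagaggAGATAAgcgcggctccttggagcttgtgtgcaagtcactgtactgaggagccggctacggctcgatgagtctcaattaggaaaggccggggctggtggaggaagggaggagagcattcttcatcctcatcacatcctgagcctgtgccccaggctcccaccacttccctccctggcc
EPB42 upstream, chr15:43221019-43221268, minus strand: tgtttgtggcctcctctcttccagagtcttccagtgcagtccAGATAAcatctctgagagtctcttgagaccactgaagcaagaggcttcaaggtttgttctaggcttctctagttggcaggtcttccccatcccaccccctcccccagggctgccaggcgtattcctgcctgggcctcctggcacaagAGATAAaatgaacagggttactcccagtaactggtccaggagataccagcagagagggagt
CD38 upstream, chr4:15778078-15778327, plus strand: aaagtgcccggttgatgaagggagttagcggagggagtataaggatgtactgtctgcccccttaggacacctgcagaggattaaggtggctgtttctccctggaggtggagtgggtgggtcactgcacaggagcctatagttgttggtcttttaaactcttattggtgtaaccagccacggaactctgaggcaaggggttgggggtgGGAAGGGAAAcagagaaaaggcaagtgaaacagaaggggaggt
RUNX3 upstream, chr1:24965011-24965260, minus strand: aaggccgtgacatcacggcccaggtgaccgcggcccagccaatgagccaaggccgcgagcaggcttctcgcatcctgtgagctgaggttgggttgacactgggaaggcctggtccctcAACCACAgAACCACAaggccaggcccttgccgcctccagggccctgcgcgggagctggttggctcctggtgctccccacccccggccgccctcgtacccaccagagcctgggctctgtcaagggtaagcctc

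GP6 and EPB42, both K562 only, carry GATA, and in GP6 the E-box half-site lies before it. CD38, which encodes a surface ADP-ribosyl cyclase of B cells, carries the PU.1-IRF composite. RUNX3 carries a pair of RUNX motifs 1 base apart, written here as the reverse complement. Among the 300-base windows of all 19970 genes, GATA was in 8.69%, the E-box and GATA composite in 0.280%, PU.1-IRF in 2.59% and RUNX in 3.94%. GATA was in 13.4% of the windows of K562-only genes, 10.9% of those of GM12878-only genes and 14.7% of those open in neither line, so these start-site windows separated the lines less than the summits did. A match describes letters and not binding.

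Long stretches of the genome had peaks in one line and none in the other. These were also singled out after the values were seen. Along chr9:20884927-26747110 (5.86 Mb) 123 successive regions were GM12878 only, with 142 and 138 peaks in the GM12878 libraries and 0 in both K562 libraries. The stretch has 25 protein-coding genes, and 11 of them were called GM12878 only, among them CDKN2A (folds 10.6 and 10.7), a cell-cycle inhibitor, and MTAP (10.0 and 11.3). The median such run held 1 region. Further K562-empty stretches were chr17:70208154-72521326 with SOX9 (55 regions) and chr3:77815557-80560046 with ROBO1 (54 regions). GM12878 had no peak along chr21:20086652-22210465 with NCAM2 (24 K562-only regions, 33 and 28 K562 peaks). Whether the DNA of these stretches is present in the line without peaks was not tested, and absent DNA and closed chromatin cannot be told apart in a peak list.

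Chromosomes differed in the balance of one-line regions. There were 3.58 GM12878-only regions for each K562-only region on chromosome 13, 3.27 on chromosome 14 and 3.13 on chromosome 18, but 1.40 on chromosome 21 and 1.49 on chromosome 7. At regions open in both lines, the K562 pileup relative to the GM12878 pileup was 0.661 on chromosome 13, 0.665 on chromosome 14 and 0.904 on chromosome 7, and lowest on chromosome 22, at 0.613. Across 23 chromosomes Pearson's r between the 2 ratios was -0.671 and Spearman's rho -0.668. This is a description over chromosomes of the same 4 libraries. Copy number was not measured here, and its part in one-line calls was not tested.

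**Figure D5:**
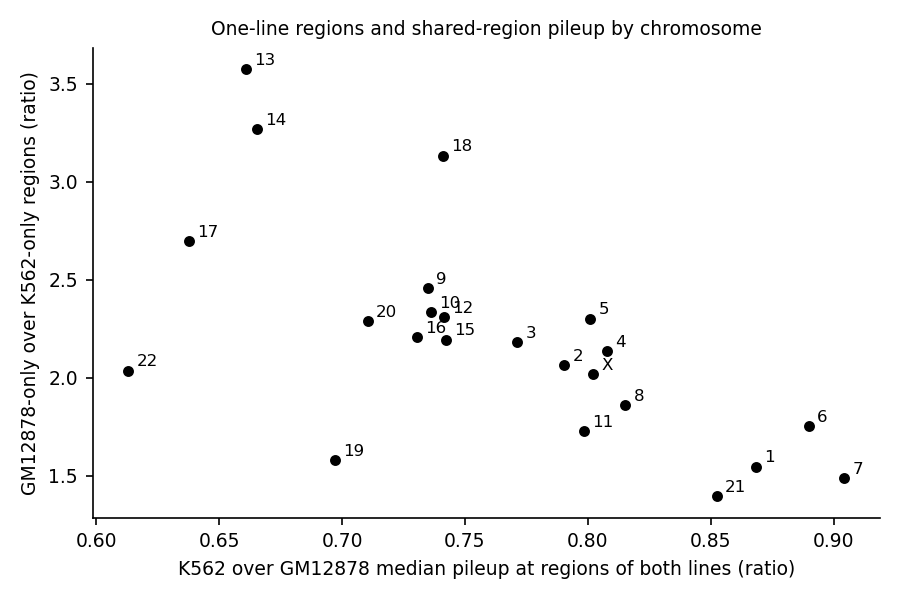
Each point is a chromosome: the ratio of GM12878-only to K562-only regions against the ratio of K562 to GM12878 median pileup at regions of both lines. Chromosomes 13 and 14 sit at the upper left and chromosomes 7 and 21 at the lower right.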

How the data were processed

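Peak lists of 4 bulk ATAC-seq libraries were used, with line and replicate taken from the labels. Replicate 1 and 2 carry no statement of separate cultures, so p-values measure only the spread between these samples, which may be technical. The submitters' processing notes name cutadapt 3.2, Bowtie2 2.4.2, Picard and MACS2 2.2.7.1 and the build hg38, with no role or order. Read shift, duplicate handling and caller settings are not given in the sources used here. The authors deposited one narrowPeak list per library without pooling. Each deposited peak has a score (10 times its −log10 q, cut to a whole number), −log10 values of a p-value and of a q-value, and a fold, which is the ratio of summit to local background within that library, and all of these are the authors' own values. The lowest −log10 q corresponds to a q-value of 0.01 in each deposited list. Folds describe and rank peaks within a list and were not tested between libraries.

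Peaks on the autosomes and X were merged with a minimum overlap of 1 bp. Pileup and background were recovered per peak from the deposited fold and −log10 p, taking the fold as (pileup + 1)/(background + 1) and the p as a Poisson tail. Genes came from 19970 protein-coding models of GENCODE release 44, with all transcript start sites. The 19 motifs were searched as fixed letters at the summit of the region's strongest replicate 1 peak. Measures per library were compared by an exact two-sided permutation test, which with 2 libraries a line cannot give a p under 0.333, and shares of regions have exact binomial intervals. The labels describe no molecular identifiers, so PCR copies may be counted more than once and intervals cover counting error only. Replicates of a line had 90 and 42 intervals in common to the base, and none were counted as a duplicate library. Merging, pileup recovery and motif search were tested on simulated data.

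The members and the 12 gene lists (206 entries) were chosen with earlier results of these data known. Named genes are those of the lists, the 12 genes per line of highest promoter fold open in that line only without a shared window, the 10 strongest distal one-line regions per line and the 5 fullest bins per line. A few items that the rule names are not reported here. Names outside this rule are marked as chosen after the values were seen, and a bin is named by genes in it. Alternatives were a stricter q, lists of equal length, thinned pileups, other promoter, summit and motif windows, gene 5′ ends and leaving out each replicate. Python 3.11.15, numpy 2.4.6, pandas 2.3.3, scipy 1.17.1 and pysam 0.24.0 were used.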

Additional observations from a re-analysis of the deposited data

Results flagged for a closer look

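Peaks on unplaced or unlocalised contigs were outside the regions compared above. The GM12878 libraries had 72 and 70 such peaks and the K562 libraries 147 and 135, so K562 had more of them although its lists were shorter. Peaks on the mitochondrial genome numbered 3 and 3 in GM12878 and 5 and 5 in K562. Both were flagged because they are signal in data that no comparison used, and no control libraries exist to set a background for them.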

How the results depend on the processing

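The direction between the lines held under every alternative run for peak number, covered length, promoter share of peaks and motif shares, and no value changed sign. Of the values recomputed, 108 were labelled as unchanged and 29 as moved. Counts were unchanged within 1.5 times the main count, and shares of regions within the interval of the main share. Measures per library were all labelled unchanged, as none changed sign, and their replicate SD was not used. This label does not describe size. With the 60000 strongest peaks per library the lines differed less in covered length and in promoter share of peaks than with the full lists. With the 60000 strongest peaks per library, genes open in K562 only numbered 1277 against 798 in GM12878 only, the opposite order to the full lists, and GM12878-only regions numbered 24152. GATA was then in 4.08% of GM12878-only and 16.9% of K562-only distal regions, with at least 1 of the 7 motifs from RUNX to NF-kappaB in 27.0% of GM12878-only ones. A motif window of 100 bp on either side gave 10.1% and 26.9% for GATA, and 33.5% (GM12878 only) and 11.8% (K562 only) for the 7 motifs. Leaving out each replicate in turn gave 24937 to 35829 K562-only regions and 50653 to 60598 GM12878-only regions, 15.9 to 17.6% for GATA in K562-only regions and 22.9 to 23.7% for the 7 motifs in GM12878-only regions. Fewer libraries relax the rule for a one-line call by construction. The cause of the other shifts was not tested. Peak number under equal list lengths, and region counts under other promoter windows, are fixed by those settings and were not recomputed.

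The labels do not say that replicate numbers pair the libraries. Deviations of same-numbered libraries over 34582 shared regions had a correlation of 0.00161. Each library was centred first, which removes any shift common to all its regions. The value therefore cannot settle whether same-numbered libraries were handled together. With a replicate block the difference between the lines in peak number was 27789 and the exact permutation p was 0.5, the smallest that 2 pairs allow. The lists carry peaks only, so a region without a peak may hold signal under the caller's threshold.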
